A study of Mus musculus with 6 samples.

Results

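Genes that mark the excitatory neurons of cortical layers 4 to 6 were followed in the primary visual cortex (V1) of the mouse after closure of an eye. They are 32 of the 52636 genes in the count table, each listed by symbol and matched to an Ensembl gene ID, with 7 genes of layer 4, 10 of layer 5 and 15 of layer 6. Both groups came from the same 3 wild-type C57BL/6J mice, aged 28 days (P28), whose right eyelids had been sutured shut for 3 days (monocular deprivation). Left V1, which lies contralateral to the sutured eye, gave 3 libraries, and right V1, ipsilateral to it, gave the other 3. The labels describe no separation of layers or cell types, so a library mixes all that the dissected block held, and every mouse was deprived: the ipsilateral V1 is the other hemisphere of a deprived animal, not V1 of an undeprived one.

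Neocortex is built of layers whose excitatory neurons differ in input, target and gene expression. Layer 4 neurons receive the main thalamic input, which in V1 carries the signals of the eyes. Layer 5 holds the neurons that project to the brainstem, spinal cord and tectum, neurons that project within the cortex, and near-projecting neurons. Layer 6 holds corticothalamic neurons, which send the cortical feedback to the thalamus, and intracortical neurons. Its deepest sheet, layer 6b, is formed of cells that persist from the embryonic subplate. In mice V1 is driven mostly by the opposite eye, so V1 opposite a closed eye loses most of its visual drive.

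Reads assigned to genes numbered 17849253 to 21818822 in contralateral and 20749614 to 32213500 in ipsilateral libraries, and 20473 genes passed the filter on low counts. Levels are given as CPM, read counts scaled to the size of the library with TMM. Of 8 genes shared by cortical excitatory neurons, all 8 had reads in every library. Tbr1 is on that list and also among the layer 6 genes. Choroid plexus markers summed to 2.999 to 3.278 CPM in contralateral and 2.665 to 3.545 CPM in ipsilateral libraries. Immediate early genes, which neurons switch on with activity, differed clearly between the hemispheres: the 14 on the list summed to 460.5 to 706.8 CPM in contralateral and 1398 to 1586 CPM in ipsilateral libraries. The libraries also fell into sets by the level of mt-Rnr1, a ribosomal RNA of mitochondria. Its level was 2243 CPM in contralateral 2, 5801 CPM in contralateral 3 and 5034 CPM in ipsilateral 2, and 28.8 CPM in contralateral 1, 35.9 CPM in ipsilateral 1 and 14.5 CPM in ipsilateral 3. This split does not follow the hemispheres, and in each set 1 hemisphere has a single library. Both libraries of mouse 1 are low and both of mouse 2 are high, but the pair of mouse 3 is divided. In mouse 3 a difference between hemispheres thus cannot be told apart from the mt-Rnr1 level.

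The layer genes differed little between the hemispheres, with a median log2 fold change of -0.11 over 31 genes, beside -1.38 for the 14 immediate early genes. The clearest differences lay in layer 6, where the matricellular protein gene Ccn2 stood 1.78-fold lower in contralateral V1, the corepressor gene Tle4 1.33-fold lower and the transcription factor gene Tbr1 1.26-fold lower, each in all 3 animals. Layer 4 and layer 5 genes varied in both directions, and contralateral 2 was the lowest library for 7 of the 9 tested layer 5 genes. Of the 32 genes 31 had enough reads to be tested; Batf3 did not. In edgeR's quasi-likelihood test 0 of the 31 passed an adjusted p under 0.05, beside 0.127% of all genes tested, and 0 passed in DESeq2 without the block. At an unadjusted p under 0.05 there were 3 of the 31, all lower and all in layer 6 (Tle4, Ccn2 and Tbr1), beside 6.15% of all genes in either direction and 2.87% lower. With the mouse fitted as a block, which uses the difference within each animal, Ccn2 and Tle4 passed as lower and 0 passed as higher. All genes gave 0.894% in that fit, 0.698% lower and 0.195% higher. At an unadjusted p under 0.05 it held 9 of the 31 genes, beside 13.2% of all genes. Lower at that p were 5 of the 31, beside 6.94% of all genes.

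Counted by direction, 19 of the 31 tested genes had a negative log2 fold change (contralateral over ipsilateral) and 12 a positive one, beside 44.6% negative over all genes. Lower in the contralateral hemisphere of all 3 mice were 11 of the 31, beside 17.3% of all genes, and 5 were higher in each mouse, beside 19.2%. For 3 of the 31 (Ccn2, Tle4 and Tbr1) every contralateral library lay below every ipsilateral one, beside 6.29% of all genes. For 0 of the 31 did every contralateral library lie above, beside 6.7% of all genes. These are counts over few genes, and nothing particular to the layer genes is read from them. The median log2 fold change was 0.05 for the 7 layer 4 genes, -0.13 for the 9 tested layer 5 genes and -0.14 for the 15 layer 6 genes, beside 0.03 over all genes tested. With a library or a mouse left out, the layer 6 median ranged from -0.28 to -0.03, and the layer 5 median was 0.001 without mouse 2.

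**Figure D1:**
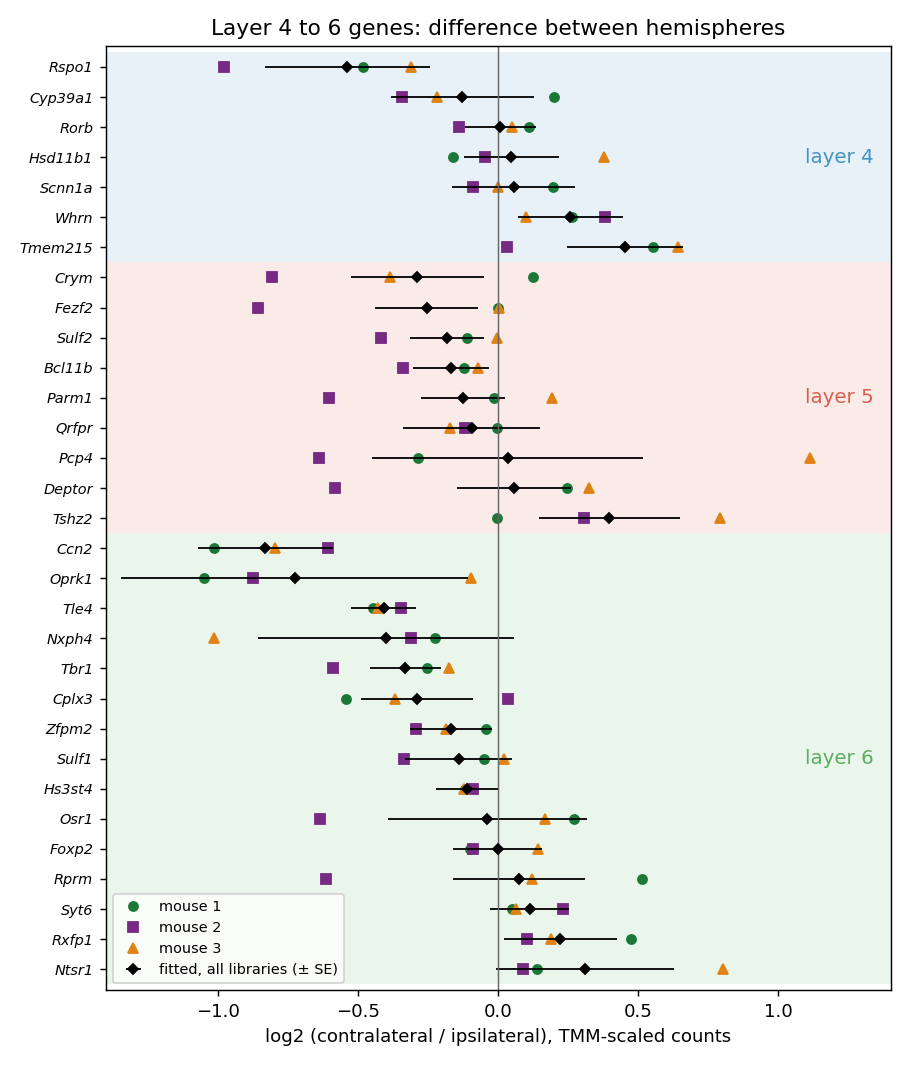
Log2 ratio of contralateral to ipsilateral V1 for the 31 tested genes, by layer. Coloured symbols are the differences within mice 1 to 3, and black diamonds with bars are the fitted log2 fold changes with their standard errors over 3 libraries per group. Of the 31 genes 11 have all 3 mice below 0, Ccn2, Tle4 and Tbr1 among them. Mouse 2 (squares) lies to the left of the other mice for most layer 5 genes.

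Among the layer 6 genes, Ccn2 (ENSMUSG00000019997, chromosome 10, 24595442 to 24598683, GRCm38, plus strand) encodes connective tissue growth factor, a secreted matricellular protein that in the cortex marks layer 6b and that vascular cells and fibroblasts also make. It had 9.76, 7.87 and 6.32 CPM in contralateral libraries 1 to 3, against 19.7, 12.02 and 10.99 CPM in ipsilateral libraries 1 to 3. Every contralateral library lay below every ipsilateral one, and the ipsilateral V1 of mouse 1 stood apart as the highest. The means were 7.98 ± 1.72 CPM in contralateral and 14.2 ± 4.77 CPM in ipsilateral V1 (SD, n = 3 each). The log2 fold change was -0.83 (SE 0.24), which did not pass in edgeR without the block (adjusted p = 0.550). With the mouse as a block it fell by 0.81 (SE 0.15, adjusted p = 0.00849 in edgeR). Over 20 alternatives the adjusted p ranged from 0.00254 to 1.00 and the log2 fold change from -1.01 to -0.57. The blocked call was lost without mouse 1 (adjusted p = 0.0652) and was kept without mouse 2 (0.0119) or mouse 3 (0.00584).

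In libraries with low mt-Rnr1 alone Ccn2 had a log2 fold change of -0.66, and in those with high mt-Rnr1 it had -0.77. Markers of meninges and fibroblasts summed to 68.9, 103.6 and 81.4 CPM in contralateral 1 to 3, against 100.8, 114.4 and 64.5 CPM in ipsilateral 1 to 3. Their sum was thus lower in contralateral V1 of mice 1 and 2 and higher in mouse 3, where Ccn2 was again lower by 0.80 on the log2 scale. Markers of endothelial and mural cells summed to 318.5, 425.8 and 331.3 CPM in contralateral and 341.8, 371.1 and 311.4 CPM in ipsilateral libraries, with overlap. Their part in the Ccn2 difference was not tested. Fewer cells of a type and less RNA per cell cannot be told apart in any of these bulk values. An antisense gene, Gm15270, shares 665 bases of the exons of Ccn2 and had 51 reads over the 6 libraries, against 1514 for Ccn2.

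Tle4 (ENSMUSG00000024642, chromosome 19, 14448150 to 14598051, minus strand) encodes a corepressor of the Groucho family that marks corticothalamic neurons. It had 68.4, 63.8 and 64.0 CPM in contralateral 1 to 3, against 93.3, 81.1 and 86.2 CPM in ipsilateral 1 to 3. The contralateral libraries lay close together and all below the ipsilateral ones, and the 3 mice gave nearly equal log2 differences of -0.45, -0.35 and -0.43. The means were 65.4 ± 2.59 CPM in contralateral and 86.9 ± 6.12 CPM in ipsilateral V1 (SD, n = 3 each). The log2 fold change was -0.41 (SE 0.11, adjusted p = 0.525 in edgeR). With the block it fell by 0.41 (SE 0.09, adjusted p = 0.0393 in edgeR), with a range of 0.0165 to 1.00 over the 20 alternatives. The blocked call was lost without mouse 1 (adjusted p = 0.0977) and without mouse 3 (0.136). In the low mt-Rnr1 libraries Tle4 was at -0.40 and in the high ones at -0.35.

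Tbr1 (ENSMUSG00000035033, chromosome 2, 61802930 to 61814114, plus strand) encodes a T-box transcription factor required for the identity of layer 6 corticothalamic neurons. Tbr1 is also on the list of genes shared by cortical excitatory neurons. It had 159.9, 124.9 and 158.1 CPM in contralateral 1 to 3, against 190.7, 188.2 and 178.4 CPM in ipsilateral 1 to 3. The groups did not overlap, and contralateral 2 was the lowest library. With a log2 fold change of -0.33 (SE 0.13), it did not pass in edgeR without the block (adjusted p = 0.748) or with it (0.153). Tbr1 was at -0.22 among the low mt-Rnr1 libraries and at -0.41 among the high ones.

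The sequences before the transcription starts of Tle4 and Tbr1 are shown because both genes stood lower in every contralateral library than in every ipsilateral one. Ccn2 did so too, but no RefSeq window was found for it. Whether any motif has a part in these differences was not tested. Each is the 250 bases before a RefSeq start (GRCm38.p6), written 5′ to 3′ on the strand of the gene, chr19:14598184-14598433 (minus strand) for Tle4 and chr2:61804203-61804452 (plus strand) for Tbr1. Capitals mark matches, on either strand, to motifs of activity-regulated or general promoter factors.
Tle4: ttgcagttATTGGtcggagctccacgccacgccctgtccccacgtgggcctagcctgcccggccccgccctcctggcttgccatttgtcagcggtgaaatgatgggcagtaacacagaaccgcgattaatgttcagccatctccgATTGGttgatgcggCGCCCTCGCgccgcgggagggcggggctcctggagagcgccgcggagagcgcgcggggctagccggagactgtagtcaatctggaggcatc
Tbr1: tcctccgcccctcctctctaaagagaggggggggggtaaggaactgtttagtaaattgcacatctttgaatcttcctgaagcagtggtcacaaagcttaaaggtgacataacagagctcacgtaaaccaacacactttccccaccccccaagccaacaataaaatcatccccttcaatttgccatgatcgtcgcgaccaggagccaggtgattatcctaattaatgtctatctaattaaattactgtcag
This Tle4 window held the EGR motif GCGNGGGCG at -91 to -83 and the CCAAT box at -242 to -238 and -105 to -101, counted from the start. The EGR motif is in 4.7% and CCAAT in 33.8% of 32851 RefSeq windows of this length. The Tbr1 window held none of the motifs searched. It lies inside the interval given above for Tbr1, so the bases before the first base of that interval were not searched. RefSeq windows were found for 20 of the 32 genes, 26 windows in all. Of these 26, 0 held the CRE TGACGTCA (1.55% of all windows), 2 held its core TGACG, which lies within the CRE (17.8%), and 2 held the AP-1 motif TGANTCA (6.75%). The EGR motif was in 3, of which 2 belong to Tle4: a further RefSeq start of that gene has a window, not printed here, with a match at -27 to -19. The T-box motif TCACACC was in 1 (3.33% of all windows), CCAAT in 7 and the CArG box in 0 (1.47%). A match is a run of letters and not a measured binding site.

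**Figure D2:**
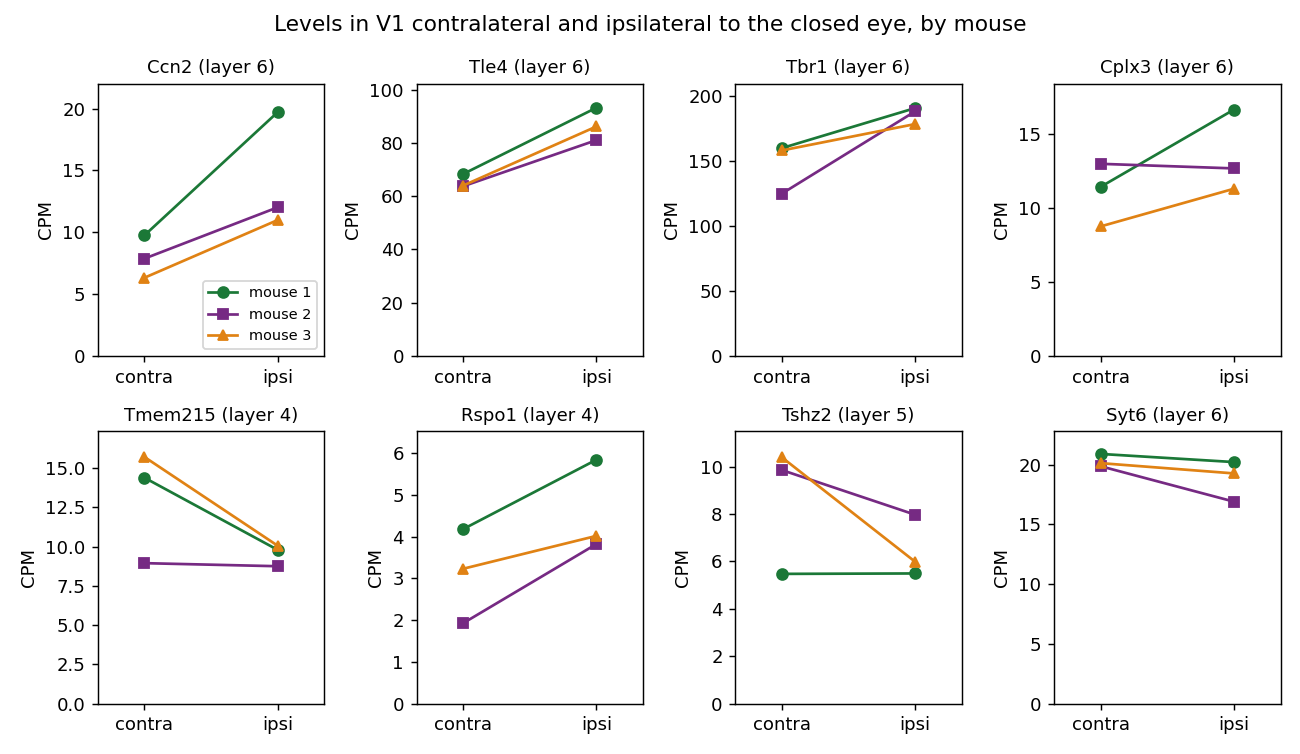
Levels in CPM of 8 genes in contralateral and ipsilateral V1, with a line for each of mice 1 to 3 and vertical axes that start at 0. Ccn2, Tle4 and Tbr1 are lower in contralateral V1 of each mouse without overlap, Cplx3 only in mice 1 and 3, and Tmem215 is higher in mice 1 and 3 with almost equal levels in mouse 2.

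Cplx3, which encodes a complexin that controls vesicle release and marks layer 6b, had 11.5, 13.0 and 8.77 CPM in contralateral 1 to 3, against 16.7, 12.7 and 11.3 CPM in ipsilateral 1 to 3. It was lower in contralateral V1 of mice 1 and 3 and nearly equal in mouse 2, and the groups overlapped. Its log2 fold change was -0.29 (SE 0.20, adjusted p = 0.844 in edgeR). Nxph4, a neurexophilin gene that also marks layer 6b, was expressed at only 0.94 ± 0.54 CPM in contralateral and 1.25 ± 0.45 CPM in ipsilateral V1 (SD, n = 3 each). Its log2 fold change was -0.40 (SE 0.46), with negative values in each mouse and overlap between the groups. Within the low mt-Rnr1 libraries it turned to 0.20.

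The genes that mark corticothalamic neurons did not all follow Tle4 and Tbr1. The 4 given here were added for contrast after their values were seen. Of the layer 6 genes given below, Hs3st4, Zfpm2 and Oprk1 were lower in contralateral V1 of each mouse and Rxfp1 was higher. Foxp2, a forkhead transcription factor gene, had a log2 fold change of 0.00 (SE 0.16), with 23.6, 24.8 and 33.3 CPM in contralateral and 25.3, 26.4 and 30.2 CPM in ipsilateral libraries. Syt6, a synaptotagmin gene, had 20.9, 19.9 and 20.1 CPM in contralateral and 20.2, 16.9 and 19.3 CPM in ipsilateral libraries (0.11, SE 0.14). It was slightly higher in contralateral V1 of each mouse, with overlap between the groups. Ntsr1, the neurotensin receptor gene used to target corticothalamic neurons, had 11.7, 6.00 and 7.80 CPM in contralateral and 10.6, 5.64 and 4.47 CPM in ipsilateral libraries (0.31, SE 0.32). Rprm, which encodes a mediator of cell-cycle arrest, had 35.9, 16.6 and 21.6 CPM in contralateral and 25.2, 25.4 and 19.9 CPM in ipsilateral libraries (0.07, SE 0.24). It was higher in mice 1 and 3 and lower in mouse 2. None of the 4 passed in edgeR with or without the block, and the differences between these genes and Tle4 or Tbr1 were not tested.

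Of the other layer 6 genes, Rxfp1, a relaxin receptor gene, had a log2 fold change of 0.22 (SE 0.20) and was higher in contralateral V1 of each mouse. Hs3st4, which encodes a 3-O-sulfotransferase of heparan sulfate, had -0.11 (SE 0.11), with 57.7 ± 2.07 CPM in contralateral and 62.3 ± 2.85 CPM in ipsilateral V1 (SD, n = 3 each). Zfpm2, a cofactor gene of GATA factors, had -0.17 (SE 0.15), and both were lower in each mouse with overlap. Sulf1, which encodes an extracellular sulfatase that trims heparan sulfate, had -0.14 (SE 0.19), and Osr1, a zinc finger transcription factor gene, had -0.04 (SE 0.35). Oprk1, the kappa opioid receptor gene, had 0.40, 2.68 and 1.57 CPM in contralateral and 0.85, 4.93 and 1.68 CPM in ipsilateral libraries. It was lower in contralateral V1 of each mouse, but levels varied far more between mice than between hemispheres (-0.73, SE 0.62). None of these passed in edgeR with or without the block. Summed over the 15 genes, layer 6 levels were 396.8 to 458.6 CPM in contralateral and 485.1 to 518.1 CPM in ipsilateral libraries, without overlap. Tbr1 and Tle4 were the largest terms of that sum in every library, so the sum in large part restates their values. Of the other layer 6 genes only Ccn2 had groups without overlap.

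Layer 5 genes were mostly lower in contralateral V1 of mouse 2 and varied in both directions in mice 1 and 3. Fezf2, which encodes the zinc finger factor that specifies subcortically projecting neurons, had 21.8, 13.2 and 20.3 CPM in contralateral 1 to 3, against 21.8, 24.0 and 20.3 CPM in ipsilateral 1 to 3. Mice 1 and 3 had equal levels in both hemispheres, and contralateral 2 alone was low. The log2 fold change was -0.26 (SE 0.18, adjusted p = 0.853 in edgeR), and it was 0.00 without mouse 2. Bcl11b, also known as Ctip2, which acts downstream of Fezf2, had 70.9, 53.1 and 67.6 CPM in contralateral and 77.2, 67.2 and 71.1 CPM in ipsilateral libraries (-0.17, SE 0.13). It was lower in each mouse with overlap between the groups.

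Crym, which encodes mu-crystallin, a thyroid hormone binding protein, had 17.4, 8.41 and 10.1 CPM in contralateral and 16.0, 14.7 and 13.2 CPM in ipsilateral libraries. It was lower in mice 2 and 3 and higher in mouse 1 (-0.29, SE 0.24, adjusted p = 0.870 in edgeR). Sulf2, the gene of a sulfatase closely related to Sulf1, had 88.8, 76.2 and 77.4 CPM in contralateral and 95.9, 101.8 and 77.5 CPM in ipsilateral libraries (-0.18, SE 0.13, adjusted p = 0.855 in edgeR). The groups overlapped for both. Sulf2 shares 154 bases of exon with Ncoa3 on the opposite strand, which had 9821 reads over the 6 libraries against 11838 for Sulf2, and the strand setting of the counting is not given in the sources used here.

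Tshz2, a teashirt zinc finger gene of near-projecting neurons, ran the other way. It had 5.48, 9.85 and 10.4 CPM in contralateral 1 to 3, against 5.49, 7.97 and 5.99 CPM in ipsilateral 1 to 3. It was higher in mice 2 and 3 and equal in mouse 1, and the groups overlapped (0.40, SE 0.25, adjusted p = 0.832 in edgeR). The libraries of mouse 3 also differed in their mt-Rnr1 level. Among the rest, Parm1, a mucin-like membrane protein gene, had -0.13 (SE 0.15). Qrfpr, the receptor gene of the neuropeptide QRFP, had -0.09 (SE 0.24), and Deptor, which encodes an inhibitor of mTOR, had 0.06 (SE 0.20). Batf3, a basic leucine zipper factor gene, was barely detected: it had 6, 8 and 0 reads in contralateral and 16, 19 and 4 reads in ipsilateral libraries, and no fold change is given.

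Contralateral 2 was the lowest of the 6 libraries for 7 of the 9 tested layer 5 genes, for 6 of the 15 layer 6 genes and for 3 of the 7 layer 4 genes, 16 of 31 in all. Over all genes tested it was the lowest for 22.6%. Contralateral 2 also had the fewest reads assigned to genes (17849253) and ipsilateral 2 the most (32213500). The part of read depth in these values was not tested. Set against the mean of each gene over the 6 libraries, the median level in contralateral 2 was -0.40 on the log2 scale for layer 5, -0.29 for layer 4 and -0.13 for layer 6. The within-mouse medians for layer 5 were -0.005, -0.58 and 0.004 in mice 1 to 3, those for layer 6 were -0.10, -0.31 and -0.10, and those for layer 4 were 0.20, -0.09 and 0.05. In mouse 2 the median difference was also negative for the 8 genes shared by excitatory neurons (-0.44), a list that holds Tbr1 too. The same was so for 12 genes of layer 2-3 (-0.33) and for 27 tested genes of a further list of layer 4 to 6 genes (-0.56). The median was negative as well for markers of GABAergic interneurons (-0.52), the hippocampus (-0.49), meninges and fibroblasts (-0.21) and oligodendrocytes (-0.17), and for immediate early genes (-1.42). It was positive for markers of astrocytes (0.26), microglia (0.43), endothelial and mural cells (0.21) and the thalamus (0.20). Striatum markers were at -0.04 and the 2 tested choroid plexus markers at 0.03. The hippocampus and layer 2-3 lists share Wfs1. The part of these groups in the layer 5 values was not tested.

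**Figure D3:**
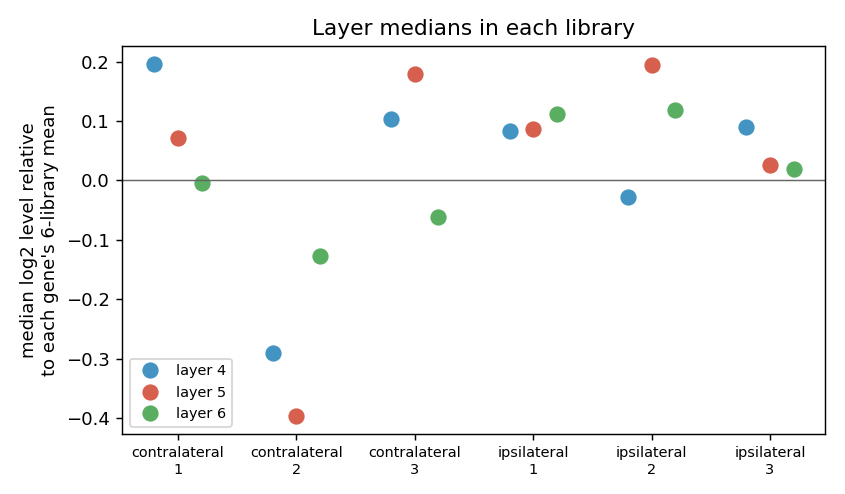
Median level of the genes of each layer in the 6 libraries, as log2 relative to the mean of each gene over the libraries, for 7 layer 4, 9 layer 5 and 15 layer 6 genes. Contralateral 2 has the lowest medians, -0.40 for layer 5 and -0.29 for layer 4, and the other libraries lie between -0.06 and 0.20.

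Layer 4 genes, which mark the neurons that take the thalamic input, gave no common direction. Rorb, the nuclear receptor gene that gives layer 4 neurons their identity, had 328.0, 304.3 and 364.5 CPM in contralateral 1 to 3, against 304.2, 335.2 and 351.8 CPM in ipsilateral 1 to 3. The groups overlapped and the means were 332.3 ± 30.3 CPM in contralateral and 330.4 ± 24.2 CPM in ipsilateral V1 (SD, n = 3 each). Rorb had a log2 fold change of 0.01 (SE 0.13), and its sign turned under several alternatives.

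Tmem215, a transmembrane protein gene, had the smallest p of layer 4. It had 14.4, 8.94 and 15.7 CPM in contralateral 1 to 3, against 9.79, 8.75 and 10.1 CPM in ipsilateral 1 to 3. It was higher in mice 1 and 3 and nearly equal in mouse 2, and contralateral 2 lay within the ipsilateral range (0.45, SE 0.21, adjusted p = 0.804 in edgeR). Rspo1, which encodes R-spondin 1, a secreted enhancer of Wnt signalling, had 4.18, 1.93 and 3.23 CPM in contralateral and 5.84, 3.82 and 4.02 CPM in ipsilateral libraries. It was lower in each mouse, the groups overlapped, and it did not pass (-0.54, SE 0.29, adjusted p = 0.824 in edgeR). Whrn, which encodes whirlin, a scaffold protein of hair cells and photoreceptors, had 115.6, 91.5 and 69.9 CPM in contralateral and 96.3, 70.2 and 65.3 CPM in ipsilateral libraries. It was higher in contralateral V1 of each mouse, while levels differed more between mice than between hemispheres (0.26, SE 0.19, adjusted p = 0.857 in edgeR).

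Hsd11b1, which encodes the enzyme that regenerates active glucocorticoid, had 12.9 ± 0.82 CPM in contralateral and 12.5 ± 2.11 CPM in ipsilateral V1 (SD, n = 3 each), a log2 fold change of 0.05 (SE 0.17). Scnn1a, a subunit gene of the epithelial sodium channel whose promoter is used to target layer 4, had 7.19 ± 1.63 CPM in contralateral and 6.95 ± 1.09 CPM in ipsilateral V1 (0.06, SE 0.22). Cyp39a1, which encodes an oxysterol hydroxylase, had 2.64, 2.14 and 2.82 CPM in contralateral 1 to 3, against 2.30, 2.72 and 3.28 CPM in ipsilateral 1 to 3. It was higher in mouse 1 and lower in mice 2 and 3 (-0.13, SE 0.25, adjusted p = 0.947 in edgeR), and for all 3 genes the groups overlapped. Summed over the 7 genes, layer 4 levels were 426.1 to 486.3 CPM in contralateral and 438.7 to 452.6 CPM in ipsilateral libraries.

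The level of Pcp4 differed more between the mt-Rnr1 sets than between the hemispheres. Pcp4, which encodes a small regulator of calmodulin and is abundant in deep layer neurons, had 13.5 and 17.96 CPM in contralateral 2 and 3 and 21.1 CPM in ipsilateral 2, the libraries with high mt-Rnr1. It had 4.38 CPM in contralateral 1, 5.34 CPM in ipsilateral 1 and 8.28 CPM in ipsilateral 3, those with low mt-Rnr1, so the sets did not overlap. Within each set the contralateral libraries lay below the ipsilateral ones. Over all libraries its log2 fold change was 0.03 (SE 0.48), with -0.65 within the low set, -0.42 within the high set and -0.49 in a fit that held the mt-Rnr1 level. Tshz2 and Rxfp1 were also higher in all 3 high mt-Rnr1 libraries, so 3 of the 31 genes were, beside 6.88% of all genes. Rspo1, Bcl11b, Hs3st4 and Zfpm2 were lower in all 3, 4 of the 31, beside 4.62% of all genes. Oprk1 was highest in ipsilateral 2 and overlapped between the sets, and within each set its contralateral libraries again lay below the ipsilateral ones (-1.68 in the low and -1.23 in the high set). Other genes had log2 fold changes of opposite sign in the sets. In the low and the high set these were 0.66 and -0.41 for Rprm, 0.25 and -0.68 for Crym, 0.53 and -0.53 for Osr1, and 0.20 and -0.80 for Nxph4. They were -0.08 and 0.34 for Tshz2, 0.04 and -0.52 for Fezf2, 0.08 and -0.45 for Sulf1, 0.03 and -0.41 for Sulf2, -0.17 and 0.24 for Qrfpr and -0.24 and 0.14 for Foxp2. The difference between the sets was not tested for any of them, nor was the part of the mt-Rnr1 level in these values. Pcp4 shares 243 bases of exon with Igsf5 on the same strand, so its counts depend on how shared reads were assigned.

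**Figure D4:**
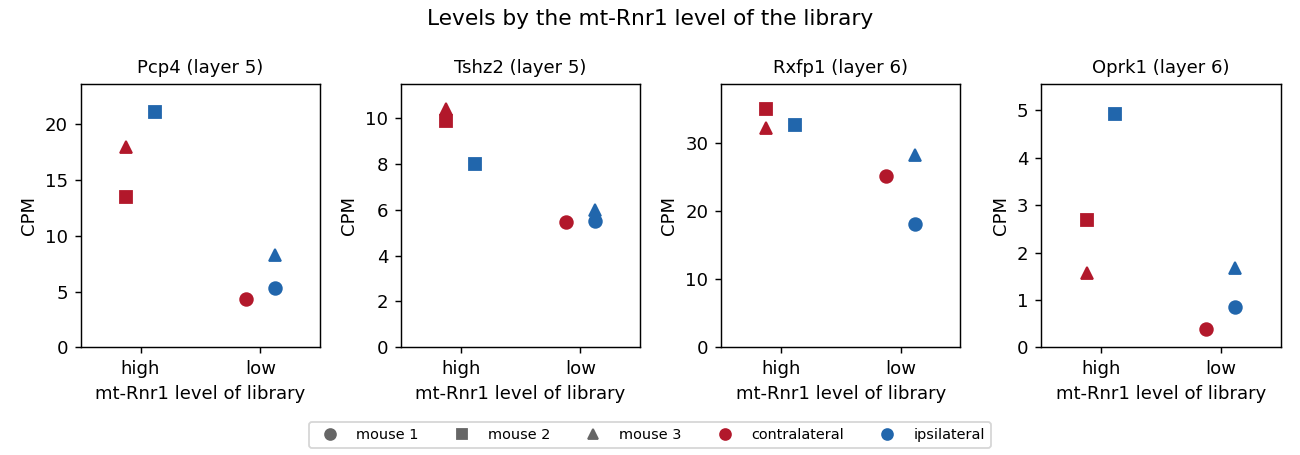
Levels in CPM of Pcp4, Tshz2, Rxfp1 and Oprk1 in the libraries with high and low mt-Rnr1, 3 libraries in each set, with colour for the hemisphere and symbol for the mouse. Pcp4, Tshz2 and Rxfp1 do not overlap between the sets, and both hemispheres are found on each side.

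Levels between genes were compared as CPM per kilobase of the deposited gene length, over all 6 libraries. Tbr1 (30.4 ± 4.50) and Rorb (29.9 ± 2.21) were the highest (SD over 6 libraries of 3 mice). Their order turned with the hemisphere: Tbr1 was at 26.9 ± 3.59 and Rorb at 30.0 ± 2.73 in contralateral V1, against 33.9 ± 1.19 for Tbr1 and 29.8 ± 2.18 for Rorb in ipsilateral V1 (SD, n = 3 each). Hs3st4 (18.8 ± 1.05), Pcp4 (18.3 ± 10.7), Rprm (16.5 ± 4.58), Tle4 (16.4 ± 2.69) and Sulf2 (14.8 ± 1.88) followed, and neighbours among them did not differ beyond their spread. Parm1, Whrn and Bcl11b lay between 8.36 and 12.3 CPM per kilobase. The neuropeptide and neurotransmitter receptor genes were low, at 2.83 for Rxfp1, 2.49 for Qrfpr, 1.97 for Ntsr1 and 0.22 for Oprk1. The layer 6b genes Cplx3 (4.17) and Ccn2 (3.89) lay in the middle of the order and Nxph4 (0.65) near its end. Per length, Ccn2 was at 2.79 ± 0.60 in contralateral and 4.98 ± 1.67 in ipsilateral V1 (SD, n = 3 each), and Tle4 at 14.1 ± 0.56 in contralateral and 18.7 ± 1.32 in ipsilateral V1.

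**Figure D5:**
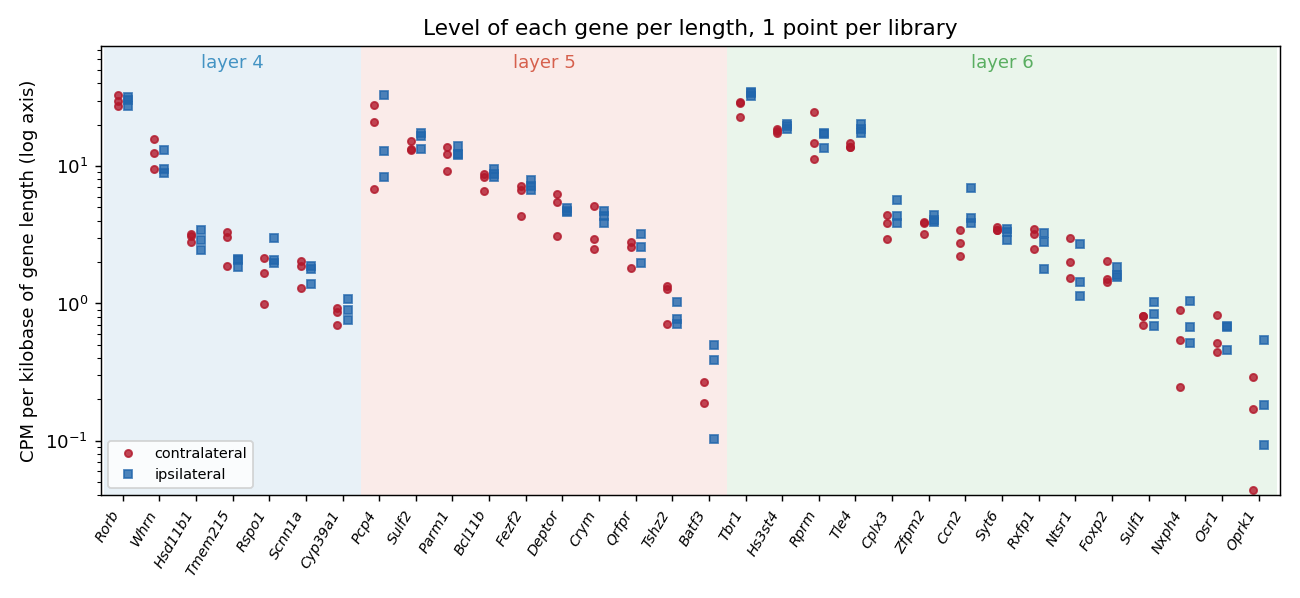
Level of each of the 32 genes as CPM per kilobase of gene length on a log axis, with a point per library, contralateral to the left of ipsilateral for each gene. Within each layer the genes run from high to low, from 30.4 for Tbr1 to 0.22 for Oprk1 in layer 6; contralateral 3 has no point for Batf3, which had 0 reads there.

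Circular RNAs, closed loops read from back-splice junctions, gave a further readout of the same genes. The table of 1488 circRNAs, which lists those with a read in every library, held 4 from these genes, 2 from Tle4 and 2 from Tshz2. Their junctions are shown because they identify loops that share 1 splice acceptor within each gene. Each line holds 15 bases on either side of the back-splice on the strand of the gene. They were taken from spliced GENCODE M21 transcripts, with capitals for the bases that follow the acceptor.
Tle4, exons 5 to 8, chr19:14516359-14564451: agagactccatcaagGCAGAGATTGTTAAA
Tle4, exons 5 to 6, chr19:14544788-14564451: aacgccatcattgggGCAGAGATTGTTAAA
Tshz2, within exon 2, chr2:169883526-169886459: actctaaattcaagtGGTATGCCCAGGAGG
Tshz2, exon 2, chr2:169883526-169886586: agaatagttctgcagGGTATGCCCAGGAGG
Exon numbers are those of GENCODE M21, and the loops hold 357, 138, 2934 and 3061 bases if all exons between their ends are kept. The end of the third loop is not an annotated exon edge.

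The Tle4 loop of exons 5 to 8 had 2, 5 and 18 back-splice reads in contralateral libraries 1 to 3, against 2, 17 and 5 in ipsilateral 1 to 3. The loop of exons 5 to 6 had 3, 1 and 3 reads in contralateral and 7, 6 and 1 in ipsilateral libraries. Both overlapped widely between the groups, with log2 fold changes of 0.30 (SE 0.64) and -0.79 (SE 0.74). For Tshz2 the shorter loop had 13, 6 and 13 reads in contralateral and 3, 10 and 5 in ipsilateral libraries (1.09, SE 0.63), and the longer one had 2, 2 and 1 reads in contralateral and 3, 6 and 4 in ipsilateral libraries (-1.11, SE 0.72). All contralateral libraries were below all ipsilateral ones for the longer loop, at counts of 1 to 6 reads. The share of all circRNAs without overlap was not computed, so nothing is read from this. In edgeR 0 of 1468 tested circRNAs passed (0% of all), with 53 at an unadjusted p under 0.05, and each of the 4 had an adjusted p of 0.999, or 0.993 with the block. Whether a change of the size of the linear Tle4 difference could be detected at these read numbers was not tested.

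Other genes of the same layers were taken from a list of 28, of which 27 were tested. Of the 27, 0 passed in edgeR without the block, with 5 at an unadjusted p under 0.05, all lower, beside 2.87% of all genes. With the block 2 passed, both lower (0.698% of all genes) and both outside the 32: the orphan nuclear receptor gene Nr4a2, a marker of layer 6b that activity can also induce, and Etv1, an ETS factor gene of layer 5. Nr4a2 had 10.0, 25.2 and 22.9 CPM in contralateral 1 to 3, against 34.4, 51.6 and 36.3 CPM in ipsilateral 1 to 3. The groups did not overlap (-1.07, SE 0.28, adjusted p = 0.388 in edgeR, or 5.04e-04 when blocked). Etv1 had 81.8, 68.3 and 99.9 CPM in contralateral and 102.9, 130.5 and 120.4 CPM in ipsilateral libraries, again without overlap (-0.50, SE 0.15). Its adjusted p in edgeR was 0.586, and 0.0456 once the mouse was fitted. The median of the 27 was -0.10, beside -0.11 for the 31.

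Markers of other cell types were summed in the same libraries. The 10 GABAergic interneuron markers summed to 417.8 to 493.4 CPM in contralateral and 570.2 to 668.9 CPM in ipsilateral libraries, without overlap. With the block 3 of the 10 passed as lower, beside 0.698% of all genes. The 10 oligodendrocyte and myelin markers summed to 3737 to 6294 CPM in contralateral and 5236 to 6494 CPM in ipsilateral libraries, with overlap. The 8 genes shared by excitatory neurons summed to 5439 to 6032 CPM in contralateral and 4483 to 6168 CPM in ipsilateral libraries, with overlap. The 12 layer 2-3 genes summed to 984.5 to 1269 CPM in contralateral and 1110 to 1266 CPM in ipsilateral libraries, with overlap. With the block 3 of these 12 passed as higher, beside 0.195% of all genes, and 2 as lower, beside 0.698%. None of these markers was at 0 in any library. Of the 14 immediate early genes, 10 fell in edgeR without the block, beside 0.127% of all genes, and 14 with it, beside 0.698%. Whether these groups have a part in the lower levels of Ccn2, Tle4 and Tbr1 was not tested.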

How the data were processed

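Total RNA of 6 V1 samples was sequenced with a stranded kit (SMARTer Stranded, v2), per the labels' protocols. The authors deposited raw read counts per Ensembl gene with gene lengths, in the layout of featureCounts per the file headers, and raw back-splice read counts per circRNA. HISAT2, featureCounts, limma and DESeq2 are listed in the submitters' processing notes, with GRCm38 as the build. The sources used here give neither the strand setting nor the circRNA caller. The authors' normalized circRNA values were not used here, and columns of samples of other series numbered 0.

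GENCODE M21 matched 52489 of 52636 IDs, and promoter windows came from RefSeq (GRCm38.p6). Genes were compared in R 4.3.3 with edgeR 4.0.16 (TMM, filterByExpr at a count of 10 and a total of 15, quasi-likelihood test, Benjamini-Hochberg, threshold 0.05), and in DESeq2 1.42.0 as an alternative. CircRNAs needed at least 2 reads in 3 libraries. Tests were checked on simulated data. Differences within mice are log2 CPM with a prior count of 0.5. Figures used Python 3.11.15 and matplotlib 3.10.9.

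Both hemispheres came from the same animals, per the labels, so libraries of 1 mouse form a pair. The 2 libraries of a mouse deviated from their group means with correlations of 0.431, 0.0775 and 0.172, and contralateral 2 correlated more with ipsilateral 3 (0.177) than with its own pair. The fit with the mouse as a block stood beside the unblocked one. In the blocked fit the pair of mouse 3 spans both mt-Rnr1 sets. Libraries of different mice are separate animals. Libraries correlated at 0.976 to 0.988 in log2 CPM, and none was a duplicate. Alternatives were another scaling, no filter, DESeq2, the block, each library or mouse left out, the sets split at 500 CPM of mt-Rnr1, and mt-Rnr1 as a term.

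The members, lists and tests were chosen with earlier results of these data known. Described in every library were up to 4 genes per layer with the smallest p and every gene passing with or without the block, with others added for contrast after their values were seen. Of the further layer list those that passed were named.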

Additional observations from a re-analysis of the deposited data

How the results depend on the processing

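Of the 31 tested genes, 0 passed in edgeR, 1 without the count filter (Ccn2), and 2 with the replicate block in edgeR or in DESeq2 (Ccn2 and Tle4). When libraries or mice were left out, blocked or not, the number passing ranged from 0 to 2 and the layer 6 median from -0.283 to -0.029. Among the libraries with high mt-Rnr1 that median was -0.347, and the layer 4 and 5 medians moved by less than their spread between mice under every alternative. The block changed no other call. Of 620 refitted log2 fold changes 535 kept direction and side of the threshold, 8 passed as well, and 77 changed sign, while 12 genes, Ccn2, Tle4 and Tbr1 among them, never changed sign. In the low mt-Rnr1 libraries the values that turned were 0.075 for Sulf1, 0.025 for Sulf2, -0.079 for Tshz2, 0.248 for Crym, 0.199 for Nxph4, 0.04 for Fezf2, 0.528 for Osr1, -0.651 for Pcp4 and -0.01 for Rorb. In the high ones they were -0.411 for Rprm, 0.24 for Qrfpr, 0.139 for Foxp2, -0.421 for Pcp4 and -0.006 for Rorb. With mt-Rnr1 as a term Qrfpr was at 0.033, Pcp4 at -0.491 and Rorb at -0.003, and in DESeq2 with the block Rprm was at -0.01, Deptor at -0.019 and Rorb at -0.013. Rorb was also at -0.011 with DESeq2 size factors and in DESeq2, and at -0.004 without the filter. Without the block and with libraries or mice left out, 15 genes turned sign in at least 1 fit, and all their left-out values ranged from -1.357 to 0.264 for Oprk1, -0.283 to 0.014 for Sulf1, -0.106 to 0.136 for Hsd11b1, -0.302 to 0.353 for Rprm, -0.265 to 0.08 for Qrfpr, -0.024 to 0.404 for Rxfp1, -0.299 to 0.092 for Parm1 and -0.176 to 0.087 for Foxp2. They ranged from -0.08 to 0.226 for Scnn1a, -0.432 to 0.001 for Fezf2, -0.349 to 0.239 for Osr1, -0.146 to 0.301 for Deptor, -0.583 to 0.803 for Pcp4, -0.304 to 0.001 for Cyp39a1 and -0.089 to 0.078 for Rorb. In the blocked fit without mouse 1 the layer 6 median was -0.278, and Rprm (-0.285), Scnn1a (-0.081), Deptor (-0.158) and Rorb (-0.082) turned. Without mouse 2 Parm1 (0.09), Foxp2 (0.027), Fezf2 (0.001) and Osr1 (0.226) turned, and without mouse 3 Hsd11b1 (-0.105), Rprm (-0.04), Deptor (-0.165), Pcp4 (-0.495) and Rorb (-0.017). The cause of these turns was not tested. Where a set or a left-out library leaves 1 library for a hemisphere, it is assumed to vary like the others. Depth limits the circRNAs and Batf3, Nxph4, Osr1 and Oprk1, which had few reads per library.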
